A study of Homo sapiens with 2 samples.

Results

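The genes described here encode the eIF4F cap-binding complex, its cofactors and the poly(A)-binding protein PABPC1, as read by ribosome profiling in the human embryonic kidney line HEK293T. They were taken by gene name from the protein-coding rows of the count table, and all 10 of EIF4A1, EIF4A2, EIF4B, EIF4E, EIF4G1, EIF4G2, EIF4G3, EIF4H, EIF4EBP1 and PABPC1 were found among 19994 such rows. In this assay the stretches of mRNA shielded by ribosomes are sequenced, so a count on a coding gene is read here as a footprint. In the culture named RiboW, cells received the mCherry-T2A-EGFP reporter plasmid with TCG at 1 position of EGFP, together with the plasmid for TetRS and 12 U6-driven tRNA cassettes (CM15CGA). In the culture named RiboWo, cells received the TetRS and tRNA plasmid without the reporter. Both had the WT genotype, were given TetBu, were grown in dishes of 15 cm, and were collected after 30 h of expression and 1 min in 0.1 mg/mL cycloheximide. TetRS is in the labels a form of chPylRS, a chimeric pyrrolysyl-tRNA synthetase. Plasmids were introduced by transfection, so a culture may hold cells that took up none of them, and no library lacked the tRNA plasmid. The comparison therefore asks what differed with the reporter present, not what the tRNA does.

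Each group had 1 library, so the differences reported compare these 2 libraries only, with no replicate check and no p-value. The libraries held 2519301 counts in RiboW and 3151403 in RiboWo, of which 13.7% in RiboW and 9.77% in RiboWo fell on protein-coding genes. The reporter row had 271843 counts in RiboW and 399 in RiboWo, in the direction of the titles, and the TetRS row had 30286 in RiboW and 59723 in RiboWo. Of 9 genes that HEK293 lines express, all 9 had a count, with 368 counts in all in RiboW and 289 in RiboWo, led by VIM and the neurofilament gene NEFL. Leukocyte markers had 5 counts in RiboW and 20 in RiboWo (4 of 8 genes with a count, PTPRC and CD3E at 0). CORO1A had 1 in RiboW and 14 in RiboWo and LCP1 0 and 6, but CD14 had 3 and 0 and LYZ 1 and 0. Fibroblast markers had 17 in RiboW and 55 in RiboWo (5 of 6 genes with a count, PDGFRA at 0). COL1A2 had 4 in RiboW and 21 in RiboWo and COL3A1 4 and 19, but LUM had 2 and 0. Those 2 collagen genes were lower in RiboW by the 2-fold rule used below at 20 counts, as were 6.54% of coding genes. Erythroid and serum markers had 0 in RiboW and 18 in RiboWo (3 of 5 genes with a count, HBA1 and HBA2 at 0), mostly from ALB with 0 and 13. The part of these markers in the values below was not tested.

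As background, translation of most cellular messages begins when eIF4E binds the cap at the 5′ end of the mRNA. The scaffold eIF4G joins eIF4E to the RNA helicase eIF4A and to the small ribosomal subunit through eIF3, and PABPC1 on the poly(A) tail binds eIF4G as well. eIF4B and eIF4H stimulate the helicase, and the protein 4E-BP1, encoded by EIF4EBP1, binds eIF4E in place of eIF4G until mTORC1 phosphorylates it. Messages that start with a C followed by a run of pyrimidines, called TOP messages, are the best known targets of that control, and PABPC1 and EIF4B belong to them.

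The sequence around the annotated start shows which of these genes begin in that way, for the genes with a window. No window of PABPC1 or EIF4EBP1 was used here. The windows below run from 15 bases before to 15 bases from the start, and are those of the 5 genes that have a single window in the RefSeq table (GRCh38.p14). Capitals mark a run that begins with C within 3 bases of the start and goes on with at least 4 further C or T, 5 in all, read on the strand of the gene.
EIF4A1: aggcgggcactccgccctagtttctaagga
EIF4A2: gttgggcgccgctgtCTTTTCagtcgggcg
EIF4B: ttgcctcatccgggtCTTTTgcgttctctt
EIF4E: ccttctggagcggttgtgcgatcagatcga
EIF4H: ccttcctcgctcaccctggttcctctcgga
The windows are at chr17:7572810-7572839 (plus strand) for EIF4A1, chr3:186783562-186783591 (plus) for EIF4A2, chr12:53006441-53006470 (plus) for EIF4B, chr4:98929119-98929148 (minus) for EIF4E and chr7:74174341-74174370 (plus) for EIF4H. EIF4A2 and EIF4B carried such a run, and EIF4A1, EIF4E and EIF4H did not. Over 35116 windows of the table, 13.0% held it. On a list of TOP messages that left out ribosomal proteins, 9 of 11 genes with a window held it. That is a count of genes, which may have several windows each, so it is not on the scale of the 13.0%. TOP messages are defined by a run of this kind, so a high count follows from the choice of list. EIF4G1, EIF4G2 and EIF4G3 have several annotated starts, and with them 4 of 12 windows of 8 genes held the run. A window of EIF4G1 and a window of EIF4G2 held it, and no window of EIF4G3 did. These are matches of letters at annotated starts, and the starts used in these cells were not measured.

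The scaffold gene EIF4G1 had the most footprints of the 10 genes, and its counts differed little between the libraries. EIF4G1 (ENSG00000114867, chromosome 3, 184314495 to 184335358) had 444 counts in RiboW and 414 in RiboWo. By counts it ranked 63 in RiboW and 52 in RiboWo among coding genes. After scaling by the TMM method of edgeR, its log2 ratio of counts with over without the reporter was -0.03, with an exact interval at 95% of -0.23 to 0.17. Such intervals cover counting error only, and since copies made by PCR are counted as separate reads they may be too narrow even for that. For scale, the median log2 ratio was 0.11 over the 1060 coding genes that reached 100 counts in the 2 libraries together, called measured below. A footprint count from a whole culture moves with the number of cells holding a message, with the amount of that message per cell and with the ribosomes on it, and with no RNA library used here these cannot be told apart.

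The other scaffold genes were read less often. EIF4G2 (chromosome 11, 10797050 to 10808940) encodes a relative of eIF4G that lacks the eIF4E-binding region and serves cap-independent initiation. It had 174 counts in each library, for a log2 ratio of -0.13 (-0.44 to 0.18). EIF4G3 (chromosome 1, 20806292 to 21177285), which encodes a second full-length scaffold, had 56 counts in RiboW and 76 in RiboWo. Its log2 ratio of -0.57 (-1.10 to -0.06) was the lowest of the measured members, and 73 of the 1060 measured genes had a lower one. The interval lay below 0 under this scaling, but reached 0.02 with the size factors of DESeq2 and 0.40 when libraries were scaled by total counts. The coding median was 0.19 and 0.57 under those scalings and 0.11 under TMM, above the EIF4G3 interval each time. The share of measured genes with an interval below that median was not taken.

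Shares within the scaffold family need no scaling between libraries. EIF4G1 made 65.9% of EIF4G counts in RiboW (exact interval 62.2 to 69.5%), against 62.3% in RiboWo (58.5 to 66.0%). EIF4G2 made 25.8% in RiboW (22.5 to 29.3%) and 26.2% in RiboWo (22.9 to 29.7%). EIF4G3 made 8.31% in RiboW (6.34 to 10.7%) and 11.4% in RiboWo (9.12 to 14.1%). For each of the 3 genes the intervals of the libraries overlapped. The log2 difference between the ratios of EIF4G3 and EIF4G1 was -0.54, with an interval of -1.10 to 0.02 that included 0.

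**Figure D1:**
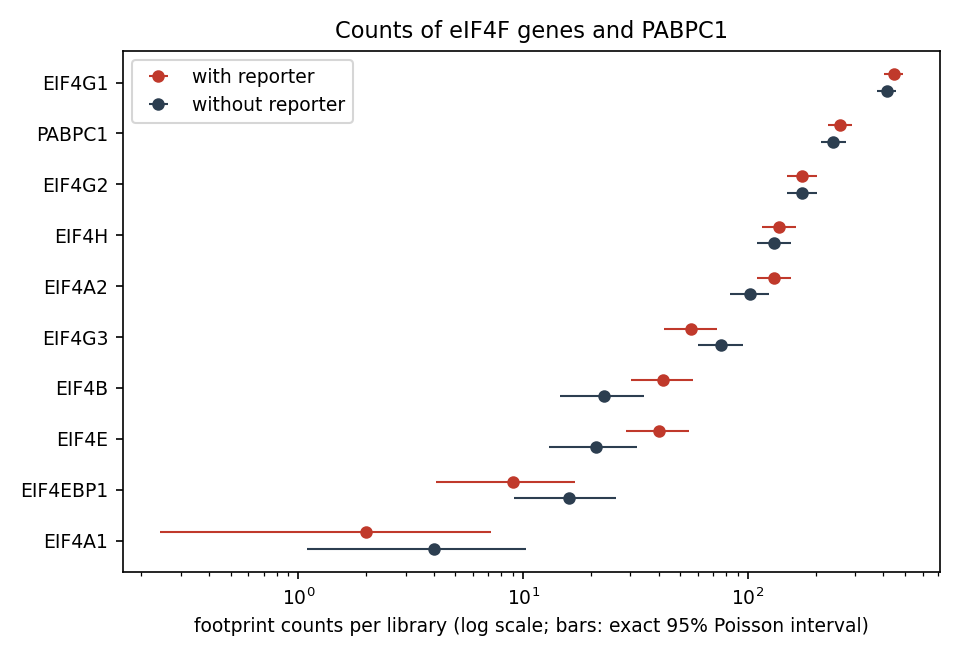
Footprint counts per library (log scale) of the 10 genes, with points for RiboW above those for RiboWo, and bars for exact 95% Poisson intervals. EIF4G1 lies highest at 444 counts in RiboW and 414 in RiboWo, and EIF4A1 lowest at 2 in RiboW and 4 in RiboWo.

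Of the helicase genes, EIF4A2 was well covered and EIF4A1 almost empty. EIF4A2 (chromosome 3, 186783205 to 186789897) had 131 counts in RiboW and 102 in RiboWo, a log2 ratio of 0.23 (-0.16 to 0.62). This was the highest ratio of the measured members, and 60.8% of measured genes lay below it. EIF4A1 (chromosome 17, 7572824 to 7579006), which encodes the near-identical and in most cell lines more abundant helicase, had 2 counts in RiboW and 4 in RiboWo. Its log2 ratio of -1.13 (-4.60 to 1.67) leaves the direction undetermined at this depth. EIF4A1 accounted for 1.5% of the counts of both helicase genes in RiboW (0.183 to 5.33%) and 3.77% in RiboWo (1.04 to 9.38%).

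The EIF4A1 row shares its locus with others. A readthrough gene on the same strand, SENP3-EIF4A1 (chromosome 17, 7563287 to 7578715), covers 95.3% of it and had 7 counts in RiboW and 2 in RiboWo. Processed pseudogenes named after EIF4A1 held 13 rows with 4 counts in all in RiboW and 6 in RiboWo, and no row had more than 5. In the whole table, 1106 coding genes had at least 90% of their locus covered by another coding gene on the same strand, and 1.45% of these reached 100 summed counts. Among the other 18888 coding genes, 5.53% did. EIF4A1 was the only one of the 10 members covered in this way. This comparison was chosen after the EIF4A1 counts were seen. The sources used here do not give how reads in overlapping genes were counted, and the part of the overlap in the low count was not tested. The low values of EIF4A1 therefore do not give its level in the cells.

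The helicase cofactors differed in depth and in value. EIF4H (chromosome 7, 74174231 to 74197122) had 138 counts in RiboW and 131 in RiboWo, a log2 ratio of -0.06 (-0.41 to 0.30). EIF4B (chromosome 12, 53006282 to 53042215) had 42 counts in RiboW and 23 in RiboWo. Its log2 ratio was 0.74 (-0.03 to 1.54), so the interval included 0 at this scaling. The lower bound was 0.046 with the size factors of DESeq2 and 0.43 when libraries were scaled by total counts, so whether the EIF4B interval includes 0 depends on the scaling. The coding median was 0.19 and 0.57 under those scalings and 0.11 under TMM, within the EIF4B interval each time. The log2 difference between EIF4B and EIF4H, which needs no scaling, was 0.79 (-0.06 to 1.67).

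The cap-binding gene itself had few footprints. EIF4E (chromosome 4, 98879276 to 98929133) had 40 counts in RiboW and 21 in RiboWo, a log2 ratio of 0.80 (0.00 to 1.63). The lower bound lay just above 0 with this scaling and at -0.04 when libraries were scaled by coding counts. The coding median, 0.11 and 0.074 under these scalings, lay within the EIF4E interval each time. Its inhibitor gene EIF4EBP1 (chromosome 8, 38030534 to 38060365) had 9 counts in RiboW and 16 in RiboWo, with a log2 ratio of -0.96 (-2.32 to 0.30). The number of EIF4EBP1 counts per EIF4E count was 0.225 in RiboW and 0.762 in RiboWo. The log2 difference between these genes was -1.74 (-3.35 to -0.21), an interval that excluded 0 for this pair taken alone.

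PABPC1 (chromosome 8, 100685816 to 100722809) stood next to EIF4G1 in both counts and ratio. It had 257 counts in RiboW and 240 in RiboWo, a log2 ratio of -0.03 (-0.29 to 0.23). Per EIF4G1 count there were 0.579 PABPC1 counts in RiboW and 0.580 in RiboWo, so that their log2 difference was -0.00 (-0.33 to 0.33). PABPC1 has 13 pseudogene rows in the table, which together held 1 count in RiboW and 0 in RiboWo. Reads matching both could still have been lost in counting.

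**Figure D2:**
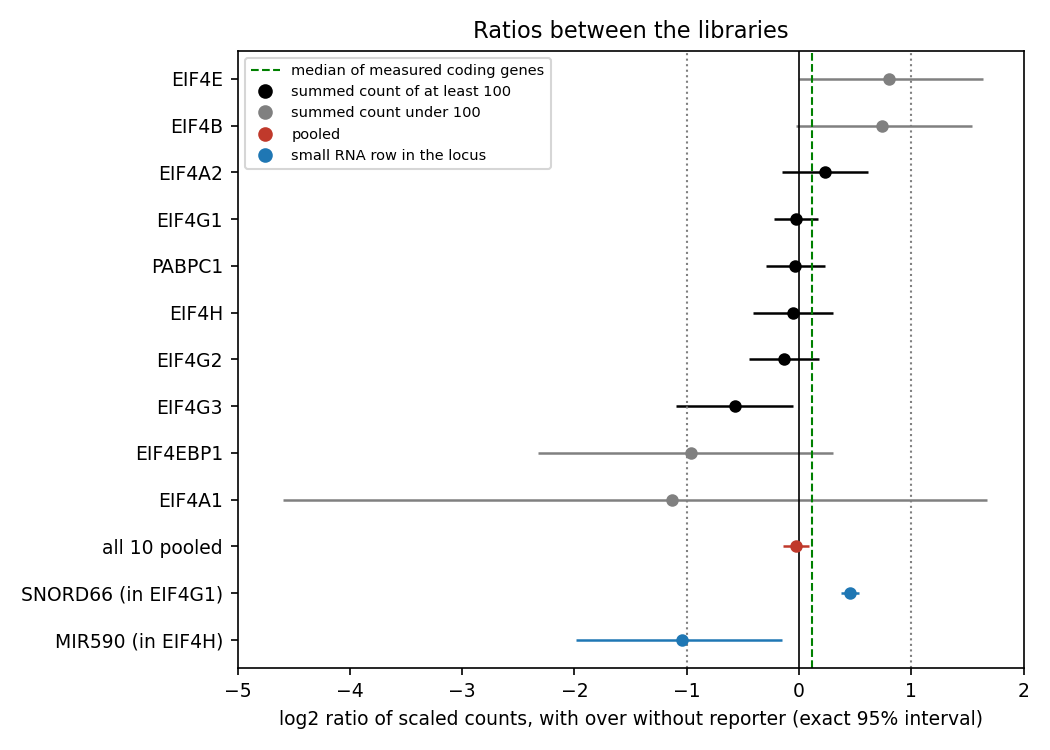
Log2 ratio of scaled counts, with over without the reporter, with exact 95% intervals, for the 10 genes, their pooled counts and the small RNA genes SNORD66 and MIR590. The green line is the median of measured coding genes (0.11), dotted lines mark 2-fold, and among the 10 genes only the intervals of EIF4G3 (-0.57) and EIF4E (0.80) exclude 0 at this scaling. Among the 10 genes, only the interval of EIF4G3 excludes the green line, and the share of measured coding genes whose interval does so was not taken.

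Set against each other, the 10 genes form 45 pairs. The interval of the difference in log2 ratio excluded 0 for 8 of them before adjustment, of which 3 included EIF4G3 and 2 included EIF4EBP1. EIF4E was on the higher side of 4 of these pairs and EIF4B of 3. With intervals widened for 45 comparisons, none excluded 0. The order of the 10 ratios is thus not resolved at this depth.

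The whole set held nearly the same part of coding footprints in each library. Together the 10 genes had 1293 counts in RiboW and 1201 in RiboWo, or 0.373% of coding counts in RiboW and 0.390% in RiboWo. The pooled log2 ratio was -0.03 (-0.14 to 0.09), and -0.06 (-0.18 to 0.05) relative to all coding counts. On these scales the median of measured coding genes was 0.11 and 0.074, just above the intervals. That median weighs genes alike, whereas a pooled value weighs them by count. EIF4G1 alone made 34.3% of the pooled counts in RiboW and 34.5% in RiboWo, and without it the pooled log2 ratio was -0.02. The 3 genes whose loci hold no small RNA gene, EIF4B, EIF4E and EIF4EBP1, had a pooled log2 ratio of 0.47 (-0.02 to 0.96).

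Against the background of all coding genes, the members did not stand out. Of the 10, 6 were measured, and EIF4B, EIF4E, EIF4EBP1 and EIF4A1 stayed below the minimum with summed counts of 65, 61, 25 and 6. None of the 6 reached a 2-fold difference with an interval excluding 0, a rule that 3.4% of the 1060 measured genes met (2.83% on the higher and 0.566% on the lower side). The interval of 1 of the 6, EIF4G3, excluded 0 at any fold, against 38.0% of measured genes. That interval also lay below the coding median, and the share of measured genes with an interval excluding that median was not taken. A gene could reach the minimum through either library, and the 4 members below it are left out of the median. The median log2 ratio of the 6 was -0.05, or -0.16 relative to the coding median, with 5 of 6 below that median. Of the 6, 5 fell in the interquartile range of the coding ratios, from -0.17 to 0.42. At a summed count of at least 20, 9 members entered and still none met the 2-fold rule, which 13.2% of 6296 coding genes did (6.69% on the higher and 6.54% on the lower side). When libraries were scaled by total counts at that minimum, EIF4E at 1.25 and EIF4B at 1.19 met it, as did 20.0% of these genes on the higher side and 1.99% on the lower side. With TMM scaling EIF4G3 and EIF4E had intervals excluding 0 at that minimum, against 22.3% of those genes.

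**Figure D3:**
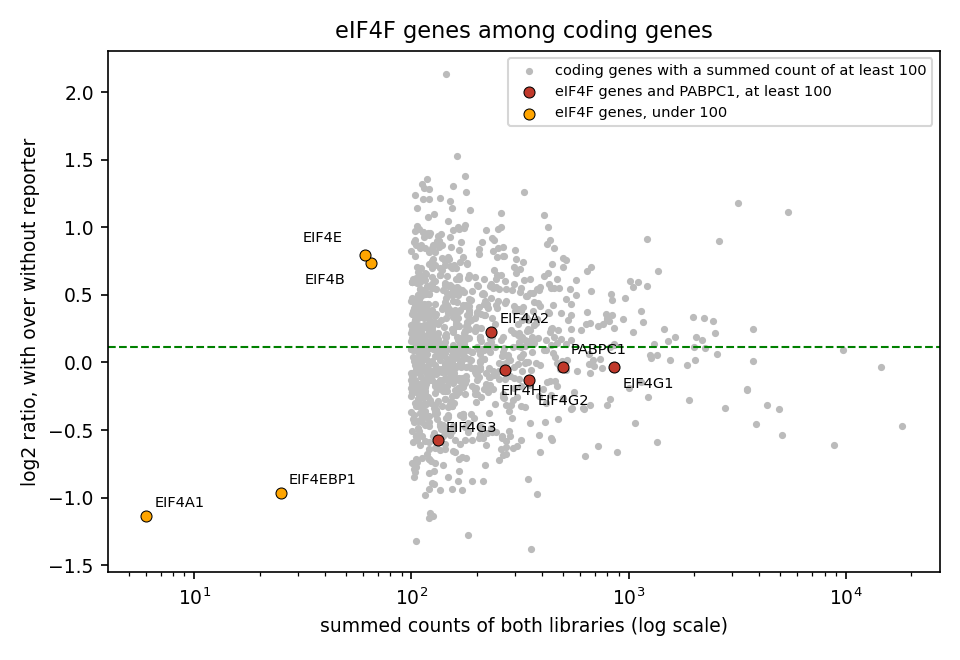
Log2 ratio with over without the reporter against the summed counts of both libraries (log scale), for the 1060 measured coding genes (grey) and the 10 members, with a dashed line at the median of measured genes. The 6 measured members lie between -0.57 and 0.23, inside the cloud of coding genes, and EIF4E and EIF4B lie higher at 61 and 65 counts.

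Levels per listed gene length gave each library its own order, with EIF4G1 first and EIF4A1 last in both. The authors' RPKM divides counts by the listed gene length, which is longer than the coding sequence that ribosomes read. How much longer can differ from gene to gene. The order below therefore holds per listed length only, and the order per coding length was not taken. EIF4G1 was highest at 17.7 RPKM in RiboW and 17.1 in RiboWo. In RiboW, PABPC1 followed at 9.37 RPKM, EIF4H at 8.27, EIF4A2 at 7.44 and EIF4G2 at 7.14. In RiboWo, PABPC1 had 9.10 RPKM, EIF4H 8.16, EIF4G2 7.42, EIF4EBP1 6.58 and EIF4A2 6.02. Within each of these runs below EIF4G1, neighbours did not differ beyond counting error. The order ended in RiboW with EIF4EBP1 at 3.56 RPKM, EIF4E at 2.80, EIF4B at 2.42, EIF4G3 at 1.64 and EIF4A1 at 0.134. It ended in RiboWo with EIF4G3 at 2.31 RPKM, EIF4E at 1.53, EIF4B at 1.38 and EIF4A1 at 0.278. On this scale, counting error separated EIF4G1 from PABPC1 in both libraries. It also separated EIF4G2 from EIF4EBP1 and EIF4G3 from EIF4A1 in RiboW, and in RiboWo EIF4A2 from EIF4G3 and EIF4B from EIF4A1. No other neighbours in either order were separated.

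Several of these genes are hosts of small RNA genes, which the table counts in rows of their own. These RNAs are not translated, so their counts are not read here as ribosome footprints, and their source was not tested. The loci of 7 members hold 15 such rows, of which 12 had no count in either library. SNORD66, a C/D box snoRNA within EIF4G1 (chromosome 3, 184325696 to 184325771, same strand), had 3069 counts in RiboW and 2044 in RiboWo. This is 6.91 times the counts of its host in RiboW and 4.94 times in RiboWo. Its log2 ratio was 0.45 (0.37 to 0.54), above that of EIF4G1 by 0.49 (0.27 to 0.70). The median of the 69 snoRNA genes with at least 100 counts was 0.42, and 37 of them were below SNORD66, which places it near the middle of its class. The other 9 snoRNA rows, 3 of them in EIF4A1, 5 in EIF4A2 and 1 in EIF4G2, were at 0 in both libraries. Whether reads from these loci were set aside by the counting was not tested.

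MIR590, within EIF4H on the same strand (chromosome 7, 74191198 to 74191294), encodes 2 mature miRNAs, shown 5′ to 3′ from RefSeq (GRCh38.p14) because its counts differed from those of its host. Capitals mark the seed, bases 2 to 8.
hsa-miR-590-5p: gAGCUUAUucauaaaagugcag
hsa-miR-590-3p: uAAUUUUAuguauaagcuagu
The seeds of the arms differ from each other. The MIR590 row had 17 counts in RiboW and 32 in RiboWo, a log2 ratio of -1.04 (-1.99 to -0.15). Relative to EIF4H this was a log2 difference of -0.98 (-2.0 to -0.02). The median log2 ratio of the 187 miRNA genes with at least 20 counts was -0.83, and 75 of them were lower than MIR590. The row does not say which arm the reads came from.

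Around the complex, 6 lists of genes were described in the same way, and none of their measured genes met the 2-fold rule. The eIF3 subunits, which link eIF4G to the small ribosomal subunit, had 9 of 13 genes measured and a median of 0.05 relative to the coding median, from EIF3K at a log2 ratio of 0.68 down to EIF3M at -0.38. They had 1412 counts in RiboW and 1191 in RiboWo. The pooled log2 ratio of the 10 eIF4F genes was lower than that of eIF3 by 0.14, but the interval of the difference, -0.30 to 0.02, included 0. TOP messages other than ribosomal proteins had 11 of 14 genes measured and a relative median of -0.02, between the elongation factor EEF1B2 at 0.70 and EIF2S3 at -0.39. The pooled log2 ratio relative to all coding counts was 0.076 (-0.04 to 0.19) for eIF3 and 0.075 (0.021 to 0.129) for the TOP list, which had 6070 counts in RiboW and 5121 in RiboWo. On that scale the median of measured coding genes was 0.074, within both intervals. FAU, which encodes a ubiquitin-like protein fused to a ribosomal protein, had 56 counts in RiboW and 24 in RiboWo (1.09, 0.38 to 1.84). EEF1G, on that list, had no count in either library.

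Among cap-binding proteins and eIF4E regulators, 2 of 13 genes were measured, the TOP-binding protein LARP1 and the repressor GIGYF2, with log2 ratios of -0.04 and -0.05. The pooled counts of this list were 389 in RiboW and 449 in RiboWo, a log2 ratio of -0.38 (-0.58 to -0.18) relative to all coding counts. This interval covers the counting error of the sum and leaves out the spread between genes. Other gene lists of this size were not taken as a background. EIF4EBP2, the other 4E-BP with more than a few counts, had 35 counts in RiboW and 62 in RiboWo, for a log2 ratio of -0.96 (-1.60 to -0.34). It was named after its value was seen, and its value and that of EIF4EBP1 were both -0.96. Neither reached 2-fold, and the interval of EIF4EBP1 included 0. Of the 5236 coding genes with at least 20 and under 100 counts, 9.55% had an interval below 0, as EIF4EBP2 did.

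Of the RNA helicases and PDCD4, 4 of 7 genes were measured, with a relative median of -0.27. EIF4A3, the related helicase of the exon junction complex, was highest at 0.75 (0.24 to 1.27), and DDX6, a helicase of mRNA decay and repression, was lowest at -0.61 (-1.19 to -0.04). PDCD4, an inhibitor that binds eIF4A, had 49 counts in RiboW and 17 in RiboWo (1.40, 0.57 to 2.28), below the minimum of 100. DHX29, a helicase that helps the small subunit through structured leaders, had 10 in RiboW and 21 in RiboWo (-1.20, -2.45 to -0.05). The pooled log2 ratio of this list relative to coding counts was 0.004 (-0.20 to 0.21). For mTORC1 and MNK signalling, 2 of 14 genes were measured, MTOR at 0.10 and TSC2 at -0.38, with a relative median of -0.25. RHEB, the GTPase that activates mTORC1, had 23 counts in RiboW and 7 in RiboWo (1.58, 0.32 to 3.05). The pooled value of the list relative to coding counts was 0.04 (-0.18 to 0.25). None of the 15 poly(A)-binding proteins and partners was measured. PABPC4, another cytoplasmic poly(A)-binding protein, had 40 counts in RiboW and 53 in RiboWo (-0.54, -1.17 to 0.08). PAIP2, an inhibitor of PABPC1, had 25 in RiboW and 7 in RiboWo (1.70, 0.45 to 3.16). On the lower side were LARP4, which binds poly(A), with 26 in RiboW and 52 in RiboWo (-1.13, -1.87 to -0.43), and TOB1, a partner of the deadenylase, with 7 in RiboW and 18 in RiboWo (-1.49, -2.997 to -0.17). The pooled log2 ratio of this list relative to coding counts was -0.44 (-0.71 to -0.17), with 206 counts in RiboW and 248 in RiboWo. This interval too leaves out the spread between genes. Among genes of the list with at least 20 counts, log2 ratios ran from PAIP2 at 1.70 to TOB1 at -1.49. FAU, PDCD4, RHEB and PAIP2 met the 2-fold rule on the higher side and LARP4, TOB1 and DHX29 on the lower side when the minimum was 20 counts. Among coding genes with at least 20 and under 100 counts, 7.47% met it on the higher and 7.75% on the lower side. All 7 and PABPC4 were named after their values were seen.

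With 2 libraries a gene's pattern is a single ratio, so likeness to a member says only that the ratios are close. The measured genes nearest to EIF4A2 were SRSF10, H1-4 and SCD, at log2 ratios of 0.23 each. Those nearest to EIF4G3 were ATM, CCT6A and RRN3, each at -0.57.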

How the data were processed

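The deposited table of whole-number counts was used for the libraries RiboW and RiboWo, 1 a group, grouped by title. TopHat2 2.0.12 and HTSeq 0.9.1 are listed without roles per the submitters' processing notes, as are GRCh37 and hg19. How strand, overlapping genes and multiple matches were treated was not stated in the labels or files used here. By the coordinates, however, all 10 loci overlapped their gene in the RefSeq GRCh38.p14 table. RPKM values were deposited by the authors. Each equalled the count over listed gene length and 1 library size, which was 1.14 times the summed counts with the reporter and 0.877 times without it.

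Counts of all rows were scaled by TMM (edgeR 4.0.16, R 4.3.3). Log2 ratios carry exact Clopper-Pearson intervals at 95%, and differences between genes exact conditional odds ratio intervals (scipy 1.17.1, Python 3.11.15). Of the genes with 100 or more counts in all, those past 2-fold with an interval excluding 0 were called. The steps were tested on simulated counts. Named genes were the members, rows of at least 20 counts in their loci, the highest and lowest measured gene of each list, and the 3 measured genes nearest in ratio to the highest and the lowest measured member, besides exceptions stated in the text. Members and lists were chosen with earlier results of these data known. Alternatives were DESeq2 1.42.0 size factors, total or coding counts, RPKM with 0.1 added, other minimums and folds, pseudogene counts and thinning.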

Additional observations from a re-analysis of the deposited data

How the results depend on the processing

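No paired analysis was possible because each group had 1 library. The pooled log2 ratio of the 10 genes was -0.03 in the main setting, 0.092 with DESeq2 size factors of the poscounts type, 0.43 with total counts of all rows, and 0.47 over the 3 members without a small RNA gene in the locus. Total counts moved the median of all measured coding genes by 0.46 as well, and under them 190 genes were called higher and 0 lower, against 30 and 6. No member was called under any planned setting. Total counts put EIF4E at 1.25 and EIF4B at 1.19, past 2-fold with intervals above 0 but under 100 counts. With total counts and a minimum of 20 counts, combined after seeing the data, these 2 members were called, as were 20.0% of 6296 coding genes on the higher side and 1.99% on the lower side. The relative median was -0.16, and -0.036 with no minimum count. It could not be given for members without a small RNA gene, since none of those was measured. Of 81 recomputed ratios of single members, 5 left their interval, all under total counts (EIF4A2 0.68, EIF4G1 0.42, PABPC1 0.42, EIF4H 0.40 and EIF4G2 0.32). Scaling by DESeq2, coding counts or TMM over coding genes moved every ratio by at most 0.12, too little for any to leave its interval. The sign changed in 15 of the 81. With the SENP3-EIF4A1 counts added, chosen after seeing the data, EIF4A1 was at 0.45 (-1.20 to 2.22). The sign of its value thus changed with the 9 counts of that row, and its direction stays undetermined. At a minimum of 20 counts the relative median of cap-binding proteins and eIF4E regulators was -0.42 and that of mTORC1 and MNK signalling 0.10. The depth of 6 to 65 summed counts limits EIF4A1, EIF4EBP1, EIF4E and EIF4B.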
